A study of Mus musculus with 7 samples.

Results

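The DNA replication genes are a list of 39 genes that license origins, open and copy DNA, join the copied strands or supply deoxynucleotides. They were chosen by name, and 38 of the 39 had a row among the 30879 genes of the table, while Cdt1 was not analysed here. The samples were sorted single cells of Wild type C57BL/6 mice, with 2 samples of primary thyroid tissue, 3 of late passage thyroid follicular cell organoids (TFCOs) and 2 of early passage TFCOs, which are cultures grown in basement membrane extract from digested thyroid. The culture medium contained the growth factors EGF and FGF10, R-spondin 3, the TGF-β receptor inhibitor A83-01 and forskolin, which raises cAMP, and the labels give no other treatment and no age. Cells with at least 1000 UMIs (unique molecular identifiers, counts of single mRNA molecules) were used, which left 1457 TFCO cells and 98 tissue cells that resemble thyroid follicular cells (TFC-like, named from marker genes). Nothing in the labels ties a TFCO sample to an animal or to a line, so the spread between samples may be technical.

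Before a cell copies its genome, the origin recognition complex with CDC6 and CDT1 loads rings of MCM2 to MCM7 onto origins, and geminin (Gmnn) blocks a second round of loading. In S phase CDC45 and the GINS proteins turn the rings into active helicases, primase and polymerases copy both strands, and the PCNA clamp, loaded by RFC, holds the polymerases on DNA. Adult thyroid follicular cells divide rarely, whereas organoids have to divide to expand.

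E2F transcription factors drive many genes of S phase, and the promoters of a few members are printed here with the letters of the E2F motif. The part of E2F in the levels of the members was not tested. A match is a description of the letters and not a measured binding site. Of the 38 members, 30 were matched in the table of RefSeq promoters used here (build GRCm38.p6, 250 bases before to 50 bases after the annotated start), and 13 of these 30 (43.3%) held 1 of the letter strings TTTCCCGC, TTTCGCGC, TTTGCCGC or TTTGGCGC on either strand, beside 2.60% of all 27025 genes with a promoter. The CCAAT box, searched as CCAAT on both strands, was in the promoters of 19 of the 30 members (63.3%) and of 41.1% of all genes. Among members tested in the cells described below, 5 of 11 with an E2F motif and 7 of 17 without one were higher in cells with S phase markers. Of all 9042 genes tested there, 0.542% were higher. With those cells chosen at 4000 UMIs, 2 members and 0.0224% of all genes passed. Another listed promoter of Mcm7 (chr5:138171217-138171516) held no E2F string and is not printed. The promoters of Mcm6, Mcm5, Mcm7 and Cdc6 follow with the E2F strings in capitals (matches on both strands can overlap), and that of Pcna, which held none of them.
Mcm6, minus strand, chr1:128359656-128359955: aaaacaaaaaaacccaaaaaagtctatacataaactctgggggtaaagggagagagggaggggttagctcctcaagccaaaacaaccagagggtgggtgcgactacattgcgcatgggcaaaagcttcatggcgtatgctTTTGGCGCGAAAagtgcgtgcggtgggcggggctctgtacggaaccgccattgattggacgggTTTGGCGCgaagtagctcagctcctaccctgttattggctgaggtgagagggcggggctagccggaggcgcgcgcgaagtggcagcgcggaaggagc
Mcm5, plus strand, chr8:75109259-75109558: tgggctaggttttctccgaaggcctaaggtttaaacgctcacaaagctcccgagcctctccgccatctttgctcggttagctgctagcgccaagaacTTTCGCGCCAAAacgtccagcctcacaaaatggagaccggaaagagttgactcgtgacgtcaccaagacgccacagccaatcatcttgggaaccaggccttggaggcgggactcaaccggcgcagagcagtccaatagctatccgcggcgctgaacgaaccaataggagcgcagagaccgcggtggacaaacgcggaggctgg
Mcm7, minus strand, chr5:138171834-138172133: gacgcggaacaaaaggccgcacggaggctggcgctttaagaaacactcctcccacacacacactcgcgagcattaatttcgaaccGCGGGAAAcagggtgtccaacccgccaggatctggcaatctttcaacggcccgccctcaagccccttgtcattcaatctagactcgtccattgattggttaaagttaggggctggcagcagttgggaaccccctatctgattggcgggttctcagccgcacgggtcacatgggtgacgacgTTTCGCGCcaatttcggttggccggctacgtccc
Cdc6, plus strand, chr11:98907901-98908200: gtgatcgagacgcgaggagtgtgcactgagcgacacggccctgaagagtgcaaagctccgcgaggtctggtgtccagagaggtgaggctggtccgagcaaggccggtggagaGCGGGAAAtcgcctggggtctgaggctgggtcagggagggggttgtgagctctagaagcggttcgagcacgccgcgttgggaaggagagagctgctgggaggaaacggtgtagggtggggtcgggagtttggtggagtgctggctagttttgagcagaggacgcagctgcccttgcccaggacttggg
Pcna, minus strand, chr2:132253131-132253430: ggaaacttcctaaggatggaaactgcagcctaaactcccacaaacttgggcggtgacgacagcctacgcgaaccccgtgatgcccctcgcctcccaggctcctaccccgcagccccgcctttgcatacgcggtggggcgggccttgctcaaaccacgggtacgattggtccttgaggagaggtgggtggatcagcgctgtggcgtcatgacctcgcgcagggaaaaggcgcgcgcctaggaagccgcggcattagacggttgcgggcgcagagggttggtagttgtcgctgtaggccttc

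In total, 1406925 and 1589528 UMIs were deposited for tissue and 1985836 to 4703472 for each TFCO sample. The TFC-like tissue cells were few and shallow, with 50 and 48 cells and a median of 2272.5 and 1980.5 UMIs, against medians of 5011.0 to 12380.5 UMIs in the TFCO samples. They held 49 and 286 UMIs of the members in all, with 2 cells of tissue 2 as deep as 268847 and 151110 UMIs, while each TFCO sample held 1704 to 5152. Levels below are mean UMIs per 10000 UMIs of a cell, so they compare a gene between samples. SORT-seq reads the 3′ end of each captured transcript, so no correction for length was made.

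The first question was whether organoid cells held more replication mRNA than follicular cells of the gland. All 38 members had UMIs in every TFCO sample, whereas 21 and 34 had any in the TFC-like cells of the 2 tissue samples. These counts were not matched for depth, with 131676 and 552448 UMIs in tissue and 1962236 to 4690869 in each TFCO sample. No share over all genes was computed for them. Summed over the list, the level was 3.51 and 4.05 per 10000 in tissue, 7.80, 10.5 and 9.51 in the late samples and 10.7 and 8.14 in the early samples. Every TFCO sample lay above both tissue samples.

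**Figure D1:**
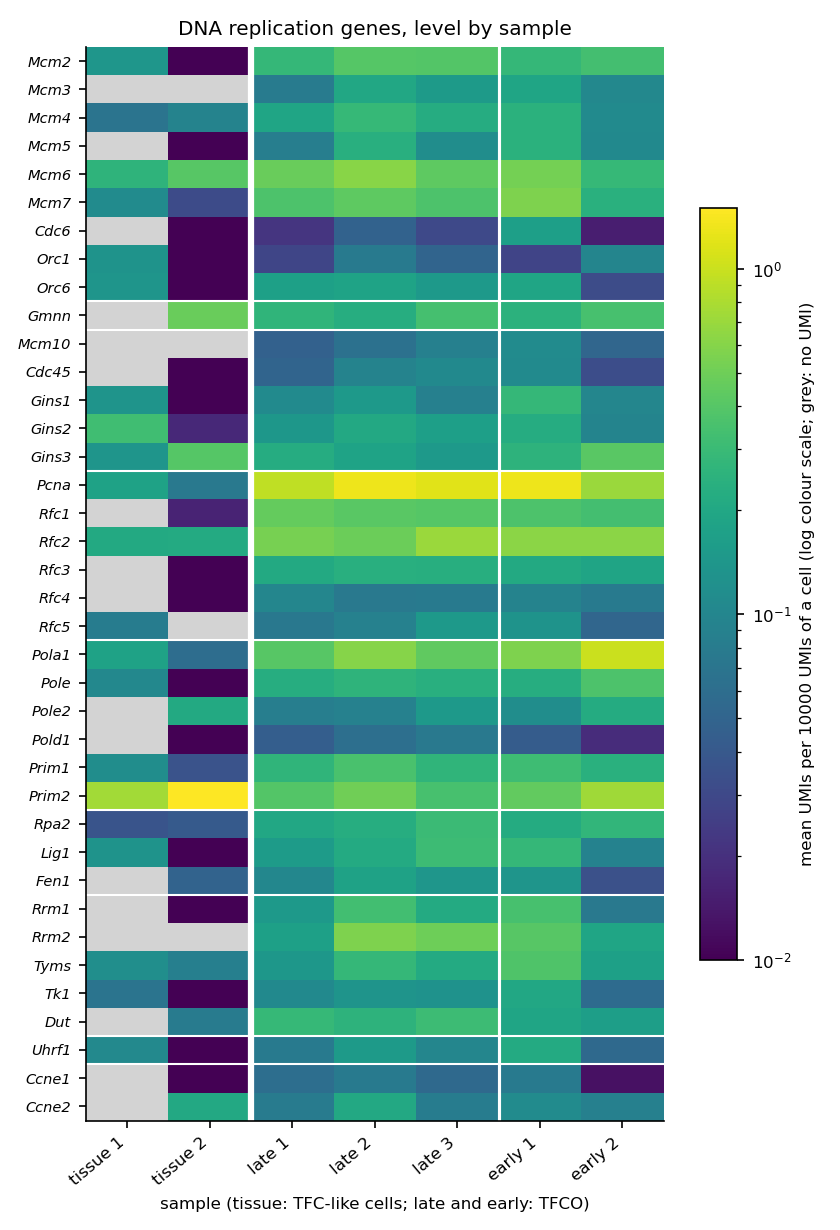
Mean UMIs per 10000 UMIs of a cell for the 38 members (rows, grouped by role) in the TFC-like cells of 2 tissue samples and in all cells of 5 TFCO samples, on a log colour scale where levels of 0.01 or less share the darkest colour. Pcna is the brightest row in 4 of the 5 TFCO samples and lies at 0.700 to 1.32, Prim2 the brightest in tissue at 0.746 and 1.49, and grey cells mark members without a UMI.

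Pcna, the sliding clamp, had the highest level of the members in 4 of the 5 TFCO samples. Its level was 0.180 and 0.0765 in tissue, 0.930, 1.32 and 1.20 in late TFCOs and 1.31 and 0.700 in early TFCOs. The groups did not overlap, and the difference was 1.31 ± 0.31 (SE) on the log2 scale with a pseudocount of 0.5 (adjusted p = 0.0150, limma). Rfc1, the large subunit of the clamp loader, was listed at 0 in tissue 1 and at 0.0166 in tissue 2, against 0.334 to 0.457 in TFCOs (log2 difference 0.80 ± 0.18, adjusted p = 0.0134, limma). The tissue 2 value came from 16 UMIs in 4.17% of its TFC-like cells. With UMIs summed over cells the log2 difference of Rfc1 was 0.50 (adjusted p = 0.208, limma), and 0.83 without the 2 deepest cells of tissue 2. The summed tissue level of Rfc1 thus depended on these 2 cells, and their own level was not compared with that of TFCO cells. Pola1, the catalytic subunit of the polymerase that starts new strands, lay at 0.179 and 0.0594 in tissue and at 0.405, 0.599, 0.442, 0.573 and 1.01 in TFCOs (log2 difference 0.86 ± 0.27, adjusted p = 0.0438, limma).

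These 3 were the members that passed the test. Only 12 of the 38 reached the filter on low values (a mean of 0.2 per 10000 over the groups), and of these 3 were higher and 0 lower in TFCOs, next to 12.3% higher and 3.94% lower among all 8720 genes tested. At an unadjusted p under 0.05, 9 of the 12 members and 33.8% of all genes differed. The median log2 difference was 0.59 over the 12 and 0.25 over all genes. In 7 of the 12 the tissue mean lay below the filter, so they passed it through the TFCO samples, and all 3 calls (Pcna, Pola1 and Rfc1) were among these 7. Of the 5 members at or above the filter in tissue (Mcm6, Gins3, Gmnn, Prim2 and Rfc2), 0 passed the test (limma), with unadjusted p of 0.0157 for Rfc2 and 0.0292 for Prim2. Every TFCO sample lay above both tissue samples for 8 of the 12, a pattern seen in 38.0% of all genes tested, and below both for 1, Prim2, a pattern of 10.1% of genes. The number of calls moved with the setting, for the members as for all genes. With UMIs summed over cells 0 members and 2.77% of all genes passed (limma), and with every cell thinned to 2000 UMIs 0 members and 3.72%, while 6 members had an unadjusted p under 0.05 in each. The log2 differences after thinning were 1.39 for Pcna, 0.78 for Rfc1 and 0.71 for Pola1. With equal weights for all samples 8 members were higher and 1 lower, next to 40.1% of all genes in either direction. Without tissue 1, tissue 2, early 1 or early 2, 9 members differed each time, next to 45.0%, 45.5%, 29.8% and 34.7% of all genes. In TFCO cells without S phase or mitosis markers 2 members were higher, next to 12.0% of all genes.

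The ring genes Mcm2 and Mcm7 were above both tissue samples in every TFCO sample and did not pass the test. Mcm2 lay at 0.138 and 0.00525 in tissue and at 0.279 to 0.401 in TFCOs (log2 difference 0.55 ± 0.20, adjusted p = 0.0690, limma), and Mcm7 at 0.113 and 0.0313 against 0.240 to 0.574 (0.64 ± 0.24, adjusted p = 0.0830, limma). Mcm6 overlapped, with 0.258 and 0.405 in tissue and 0.287 to 0.610 in TFCOs. Mcm3 (266 UMIs in TFCOs), Mcm10 (113 UMIs) and Rrm2 (648 UMIs), the small subunit of ribonucleotide reductase, had no UMI in the 684124 UMIs of the tissue TFC-like cells. Set against 3 UMIs over both tissue samples, the summed TFCO level was at least 4.18-fold higher for Mcm3, 1.78-fold for Mcm10 and 10.2-fold for Rrm2, limits that cover counting error only. These limits rest on the 2 deepest cells of tissue 2. Without them (264167 UMIs) the TFCO level was 1.62, 0.686 and 3.94 times that of 3 UMIs, and without tissue 2 (131676 UMIs) 0.805, 0.342 and 1.96 times, so that a limit above 1 was left for Rrm2 in both cases and for Mcm10 in neither. Mcm4 and Mcm5 lay at or below 0.0936 in both tissue samples and at 0.110 to 0.289 and 0.0850 to 0.247 in TFCOs. Their tissue values came from 5 and 2 UMIs.

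The other members below the filter were low everywhere. Every TFCO sample lay above both tissue samples for Cdc6 and Cdc45, the polymerase subunits Pole and Pold1, the clamp loader subunits Rfc3 and Rfc4, Rpa2, Rrm1, Tyms, Dut and Ccne1. Both tissue samples together held 1 UMI each of Cdc6, Cdc45, Rfc4 and Ccne1, 2 of Rfc3, 3 of Pole and 5 of Pold1. They held 10 each of Rpa2, Rrm1 and Tyms and 11 of Dut. These values lie near the floor, and no share over all genes below the filter was computed. The groups overlapped for Gins1, Gins2, Orc1, Orc6, Pole2, Rfc5, Lig1, Fen1, Tk1, Uhrf1 and Ccne2. Gins2, a helicase subunit, was as high as 0.320 in tissue 1 with 0.0177 in tissue 2, against 0.0951 to 0.222 in TFCOs. These genes were below the filter and were not tested.

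A few members were not lower in the gland. Prim2, the large subunit of primase, lay at 0.746 and 1.49 in tissue and at 0.396, 0.505, 0.348, 0.450 and 0.730 in TFCOs, so that both tissue samples were above all TFCO samples (log2 difference -0.67 ± 0.27, adjusted p = 0.107, limma). Prim2 was also the member whose level most followed the barcode of the well. Cells of different TFCO plates in the same well correlated by 0.213 for Prim2, 0.198 for Pole, 0.148 for Gins3, 0.131 for Pold1 and 0.111 for Pola1, whereas the other 33 members stayed at or below 0.1, and 11.2% of all genes were above it. The plates share 1 set of 384 barcodes, of which 305 were found in all 7 samples, and the part of the barcode in these 5 genes was not tested. Gins3, a helicase subunit, lay at 0.136 and 0.402 in tissue and 0.148 to 0.414 in TFCOs (log2 difference -0.01 ± 0.21). Gmnn, the licensing inhibitor, was listed at 0 and 0.479 in tissue against 0.226 to 0.350 in TFCOs.

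Beside these values, markers of some other cell types were higher in the TFC-like tissue cells than in TFCO cells. The 10 endothelial markers summed to 8.2 and 18.3 per 10000 in tissue and to 1.30 to 2.46 in TFCOs, and the 11 immune markers to 15.3 and 5.52 against 0.199 to 0.454. Stromal markers summed to 1.9 and 1.09 against 0.203 to 0.433, C cell markers to 2.73 and 3.53 against 0.0471 to 0.122. Erythroid markers summed to 5.01 and 0.489 against at most 0.0168. Mural markers summed to 0.911 and 12.7 against 0.247 to 0.887, whereas parathyroid (1.44 and 0.652 against 0.479 to 1.13) and Schwann cell markers (0.380 and 0.579 against 0.322 to 0.589) overlapped. The 12 follicular markers, which include thyroglobulin, summed to 1755 and 449 in tissue and to 105 to 202 in TFCOs. Their part in the differences was not tested. Fewer replicating cells and less replication mRNA per cell cannot be told apart in a sample mean, which the counts per cell below address in part.

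Of the 34 other genes of the replication machinery, 15 were tested and 1 was higher in TFCOs, Orc4, a subunit of the origin recognition complex (0.69 ± 0.21, adjusted p = 0.0408, limma). None of the 4 tested genes of other nucleotide supply passed. Of the 13 tested genes that control entry into S phase, 3 were higher and 1 lower. Among all genes tested, 12.3% were higher and 3.94% lower. The median log2 difference was 0.20 over the 15 genes of the machinery and 0.19 over these 13, against 0.25 over all genes. Ccnd1 (1.18 ± 0.35) and Cdk4 (1.12 ± 0.25), which form a kinase that releases E2F, and the E2F partner Tfdp1 (0.65 ± 0.19) were higher, and the sister cyclin Ccnd2 was lower in TFCOs (-1.66 ± 0.33, adjusted p = 0.00726, limma).

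Late and early passage TFCOs were compared next. Of the 12 members tested, 0 passed (limma), and 0.0229% of all genes tested passed (2 of 8720). An unadjusted p under 0.05 was seen for 2 of the 12 and for 20.3% of all genes. The smallest p-values were those of Pola1 (late minus early -0.38 ± 0.16, adjusted p = 0.214, limma) and Gins3 (-0.28 ± 0.13, adjusted p = 0.226, limma). The median log2 difference over the 12 was 0.01. Pcna overlapped between the groups, with 0.930 to 1.32 in late and 0.700 and 1.31 in early samples, and so did Mcm2 to Mcm7, Rrm1, Rrm2, Tyms and Tk1. Of the 12 members tested, 2 did not overlap, Rfc1 (0.404 to 0.457 late, 0.334 and 0.369 early) and Gins3 (0.148 to 0.221 late, 0.257 and 0.414 early), next to 40.6% of all genes tested. Of the members below the filter, Dut, which removes dUTP, and Pold1 did not overlap, and no share over all such genes was computed. Late 2 and early 1 had the highest summed levels of their groups, at 10.5 and 10.7 per 10000.

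To see how replication genes were spread over cells, each cell with at least 2000 UMIs was thinned to 2000 UMIs and the members with a UMI were counted. Cells with 3 or more members made up 12.2% (34 of 278), 19.9% (70 of 352) and 12.5% (29 of 232) of late TFCO cells and 19.5% (42 of 215) and 11.7% (32 of 273) of early TFCO cells. In tissue TFC-like cells they made up 6.67% (2 of 30; exact 95% interval 0.818% to 22.1%) and 4.35% (1 of 23; 0.110% to 21.9%). All 5 TFCO samples lay above both tissue samples, with means of 15.2 ± 4.15% (SD, n = 5) and 5.51 ± 1.64% (SD, n = 2), but an exact two-sided permutation test of the 7 shares gave p = 0.0952, where 0.0476 is the smallest p that 21 splits allow. The exact permutation test gave p = 0.0476 with another random draw, with thinning to 1000 or 4000 UMIs, and with 2 or more members. At 4000 UMIs the tissue shares rested on 0 of 6 and 2 of 10 cells. Without thinning the exact permutation test also gave p = 0.0476, but depth was not matched. Median UMIs were then 2272.5 and 1980.5 in TFC-like cells and 5011.0 to 12380.5 in TFCO samples. With 5 or more members the exact permutation test gave p = 0.0952.

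**Figure D2:**
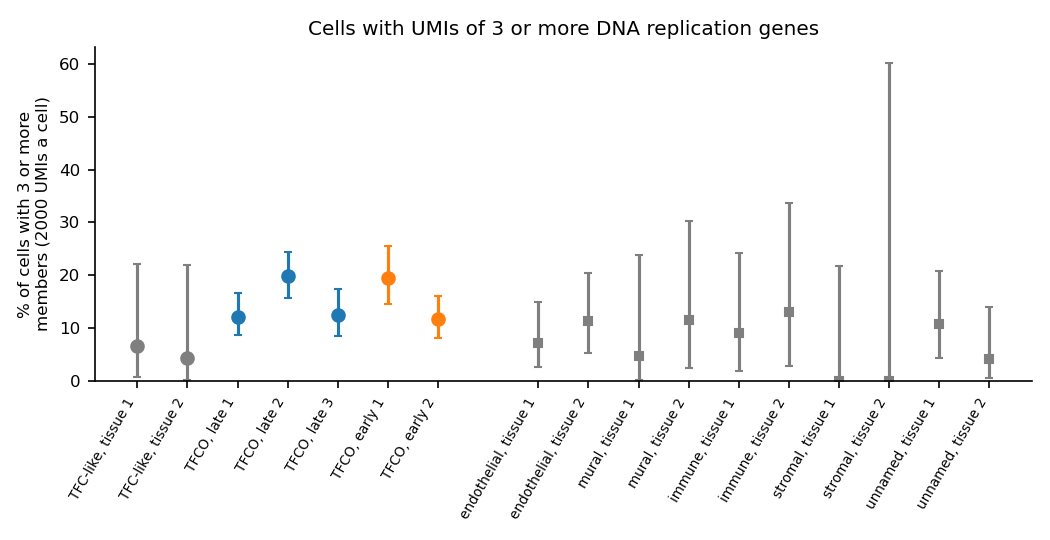
Percent of cells with UMIs of 3 or more members after thinning to 2000 UMIs, for TFC-like tissue cells and TFCO samples (circles) and for other tissue classes (squares), with exact 95% intervals that cover counting error. The 5 TFCO samples lie at 11.7% to 19.9%, above both TFC-like tissue samples at 6.67% and 4.35%, whose intervals reach over 20%.

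Late TFCOs averaged 14.9 ± 4.34% (SD over 3 samples) and early TFCOs 15.6 ± 5.52% (SD over 2 samples; exact permutation p = 1.0, where 0.1 is the smallest possible), and late 2 and early 1 were the highest of their groups. At 5 or more members the TFCO shares were 3.96%, 9.09% and 5.17% in late and 9.30% and 2.20% in early samples. No TFC-like tissue cell had 5 members, and 0 of 30 and 0 of 23 cells allow shares of up to 10.0% and 13.0% at 3 counts, or 11.6% and 14.8% by the exact 95% interval.

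In the tissue, replication genes were seen in other cell types as well. Their summed level was 6.14 and 6.36 per 10000 in endothelial-like, 6.29 and 7.14 in mural-like and 6.25 and 6.05 in immune-like cells. Stromal-like (4.51 and 5.76) and unnamed cells (5.1 and 4.91) also lay between TFC-like cells and TFCOs. Over endothelial-, mural- and immune-like cells Pcna ranged from 0.299 to 0.845, Pola1 from 0.376 to 0.956 and Rfc1 from 0.205 to 0.733. In unnamed cells Pcna lay at 0.0972 and 0.0247. Endothelial-like cells carried 3 or more members in 6 of 84 (7.14%) and 9 of 79 cells (11.4%), mural-like cells in 1 of 21 and 3 of 26, and immune-like cells in 3 of 33 and 3 of 23. These shares lay within the intervals of the TFC-like cells. Stromal-like cells had 0 of 15 and 0 of 4, with exact 95% intervals that reach 21.8% and 60.2%, and cells left unnamed 7 of 65 and 2 of 49. The tissue cells richest in members were 2 endothelial-like cells of tissue 1, with UMIs of 12 and 11 members among 2000. The first held Mcm7 with 4 UMIs and Pold1 with 2, and the second, which also passed the limit for mitosis markers, held 4 UMIs each of Pcna and of Tk1, the thymidine kinase of dividing cells. The TFC-like cells reached 4 members at most.

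The members were then read against the cell cycle. TFCO cells were sorted by genes that are not on the list, namely 26 genes of S phase or its repair factors (such as Hells, Dtl, Dnmt1 and Chaf1b) and 37 genes of G2 and mitosis (such as Mki67, Top2a, Cdk1 and Plk1). A cell with 6 or more UMIs of the second set among 2000 was placed in a mitosis class, and a cell with 6 or more of the first set only in an S class. Of 1350 TFCO cells, 114 fell in the mitosis class, 27 in the S class and 1209 in neither. Of the mitosis class cells, 17 also reached the S limit. The classes are ranges of a count and not cell types: 33 cells had 5 or 6 UMIs of the S set and 38 had 5 or 6 of the mitosis set. The mitosis class made up 3.96%, 11.4% and 7.33% of late and 14.9% and 5.13% of early cells. None of the 53 thinned TFC-like tissue cells fell in either class. At 3 counts, 0 of 30 and 0 of 23 cells allow shares of up to 10.0% and 13.0%. The S class made up 0.719% to 2.59% of the cells of a TFCO sample.

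Replication genes were concentrated in these cells. The mean number of members per thinned cell was 7.04 in the S class, 4.02 in the mitosis class and 1.21 in neither. At least 5 members were seen in 70.4% of S class cells, 29.8% of mitosis class cells and 2.32% of the others. In every TFCO sample the mean UMIs of the members per thinned cell were lowest in neither (1.27 to 1.52), higher in the mitosis class (3.14 to 7.29) and highest in the S class (7.43 to 13.4), which held 2 cells in late 1 and 3 in early 1. As cells of neither class were so many, they still held 58.8% to 79.4% of the member UMIs of a sample. Of the 81 cells with 5 or more members, 34 were in the mitosis class, 19 in the S class and 28 in neither.

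Mitosis class cells and other cells were compared within the 5 samples by limma with the sample as a term. Of the 36 members tested, 9 were higher in the mitosis class and 0 lower, next to 1.07% higher among all 9042 genes tested. The median log2 difference was 0.64 over the 36 members and -0.01 over all genes. In 24 of the 36 the level in cells of neither class was below the filter of 0.2, so they were tested because of the higher class. Of the 9 calls, Rrm1, Rrm2, Tk1, Tyms, Lig1 and Mcm5 were among these 24. With a filter on the mean over all TFCO cells, chosen after seeing the data, 20 members were tested and 7 were higher (0.721% of all genes). Mcm5 and Tk1 were not among these 7. Cdc6 and Orc1 were too low to be tested. With no filter at all, 1 member passed (0.0425% of all genes), and without late 1, 4 passed (0.508%).

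**Figure D3:**
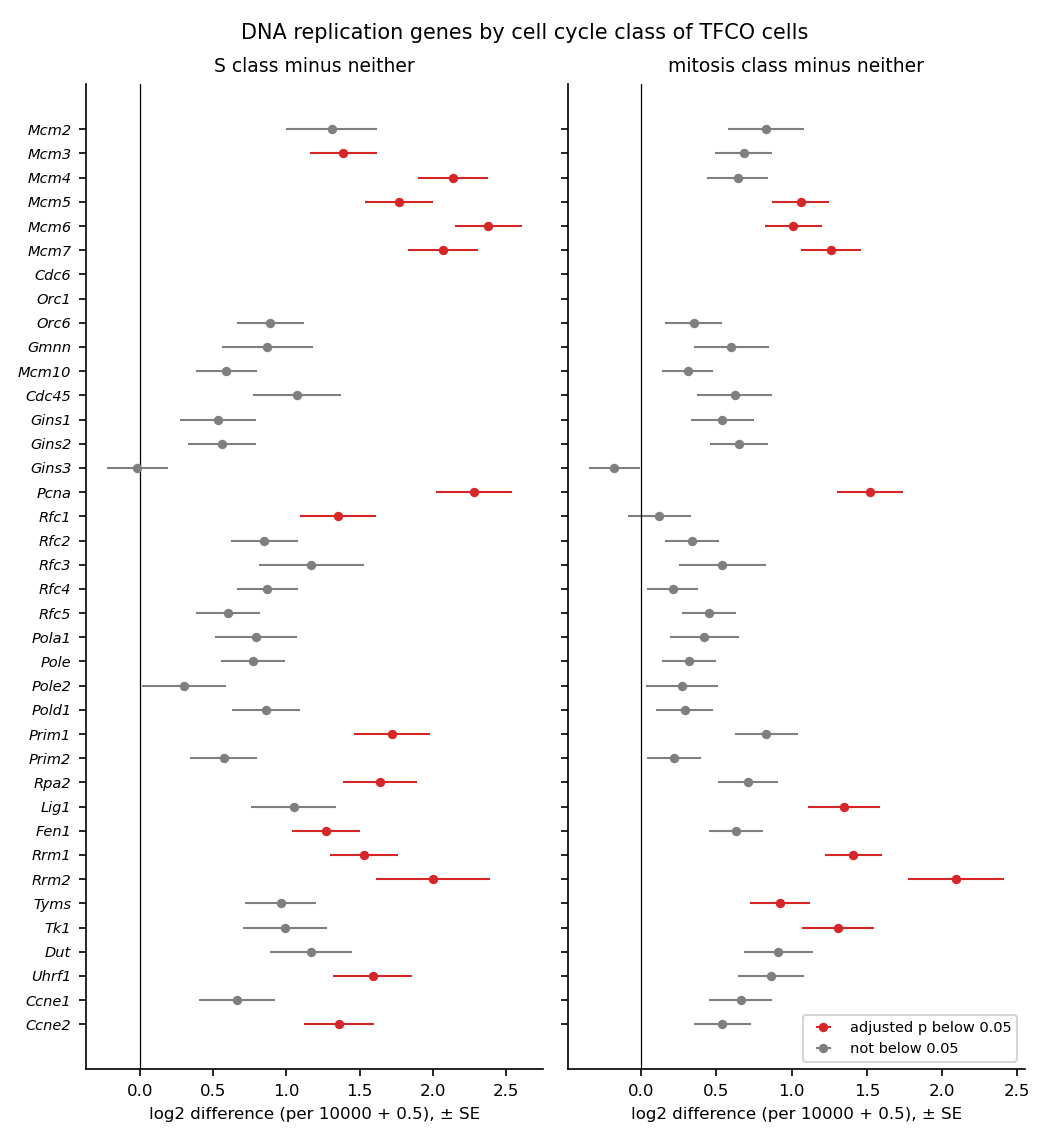
Log2 difference of the level (UMIs per 10000 plus 0.5) between S class cells and cells of neither class (left, 3 samples with an S class) and between mitosis class cells and cells of neither class (right, 5 samples), with the standard error from limma. Red marks an adjusted p below 0.05, and Cdc6 and Orc1 were not tested. Of 36 members, 14 on the left and 9 on the right are red, all to the right of 0.

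The genes of nucleotide supply were among the largest changes. Rrm2 rose from 0.0329, 0.144, 0.162, 0.103 and 0.140 in cells of neither class to 3.72, 2.5, 4.45, 1.73 and 0.373 in the mitosis class of late 1, late 2, late 3, early 1 and early 2. All 5 pairs went up and the classes did not overlap, with early 2 far below the other samples (log2 difference 2.09 ± 0.32, adjusted p = 0.00132, limma). Rrm1, its large partner subunit, rose from 0.0470 to 0.166 in neither to at least 0.492 in every sample, with a mean of 1.16 (1.41 ± 0.19, adjusted p = 0.000424, limma). Tk1 rose from 0.0316 to 0.102 to 0.351 to 1.94 (1.31 ± 0.24, adjusted p = 0.00498, limma), and Tyms, which makes thymidylate, from 0.107 to 0.272 to 0.391 to 1.02 (0.92 ± 0.20, adjusted p = 0.0192, limma). Dut did not pass (0.91 ± 0.23, adjusted p = 0.0617, limma) although its mean was 0.832 against 0.178.

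Among fork and ring genes, Pcna stood at 5.26, 2.99, 4.31, 2.69 and 1.88 in the mitosis class and at 0.770, 0.842, 0.899, 0.929 and 0.606 in neither. Every mitosis value was above every other value (1.52 ± 0.22, adjusted p = 0.000881, limma). Lig1, the ligase that joins Okazaki fragments, rose by 1.35 ± 0.24 (adjusted p = 0.00404, limma), from a mean of 0.126 to 1.17. Of the ring genes, Mcm7 (1.26 ± 0.20), Mcm5 (1.06 ± 0.19) and Mcm6 (1.01 ± 0.19) passed, with adjusted p of 0.00151, 0.00404 and 0.00547 (limma). Mcm2, Mcm3 and Mcm4 had differences of 0.83, 0.68 and 0.64 and did not pass, although all 5 samples were higher in the mitosis class. With 1 estimated weight for each class, an alternative added after the data had been seen, 24 members passed, Mcm2 to Mcm7 included, next to 3.23% of all genes. With classes drawn at 4000 UMIs, where the limit was 7 UMIs, 14 of 31 passed, next to 1.10% of all genes.

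Some members differed little between these cells. Gins3 was lower in the mitosis class of 4 of the 5 samples (-0.18 ± 0.17), Rfc1 was nearly level (0.12 ± 0.21, 0.419 against 0.338), and Prim2 and Rfc4 had differences of 0.22 ± 0.18 and 0.21 ± 0.17. None of these passed. The median depth of mitosis class cells was higher than that of cells of neither class in all 5 samples (7441.5 to 19027.0 against 5791.0 to 12500.0 UMIs), and its part in the levels was not tested.

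The S class held at least 5 cells in 3 samples (9 in late 2, 6 in late 3 and 7 in early 2), and only these entered the comparison. Of 36 members, 14 were higher than in neither and 0 lower, next to 0.542% higher among 9042 genes, with a median log2 difference of 1.06 against -0.05 over all genes. Of these 14, Mcm3, Mcm4, Mcm5, Rpa2, Fen1, Rrm1, Rrm2, Uhrf1 and Ccne2 lay below the filter in cells of neither class. They were therefore tested because of the higher classes. Mcm6, which had the largest log2 difference at this pseudocount, rose from 0.406, 0.279 and 0.152 to 3.75, 3.09 and 3.97 (2.38 ± 0.23, adjusted p = 4.07e-05, limma). Pcna stood at 8.56, 3.96 and 4.78 against 0.842, 0.899 and 0.606 (2.28 ± 0.26, adjusted p = 0.000185, limma). Mcm4 stood at 2.21, 2.14 and 2.43 against 0.193, 0.145 and 0.0327 (2.14 ± 0.24, adjusted p = 0.000185, limma). These values are of late 2, late 3 and early 2, and for these 3 genes all S values were above all values of neither class. The median depth of S class cells was below that of cells of neither class in late 2 and late 3 and above it in early 2.

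**Figure D4:**
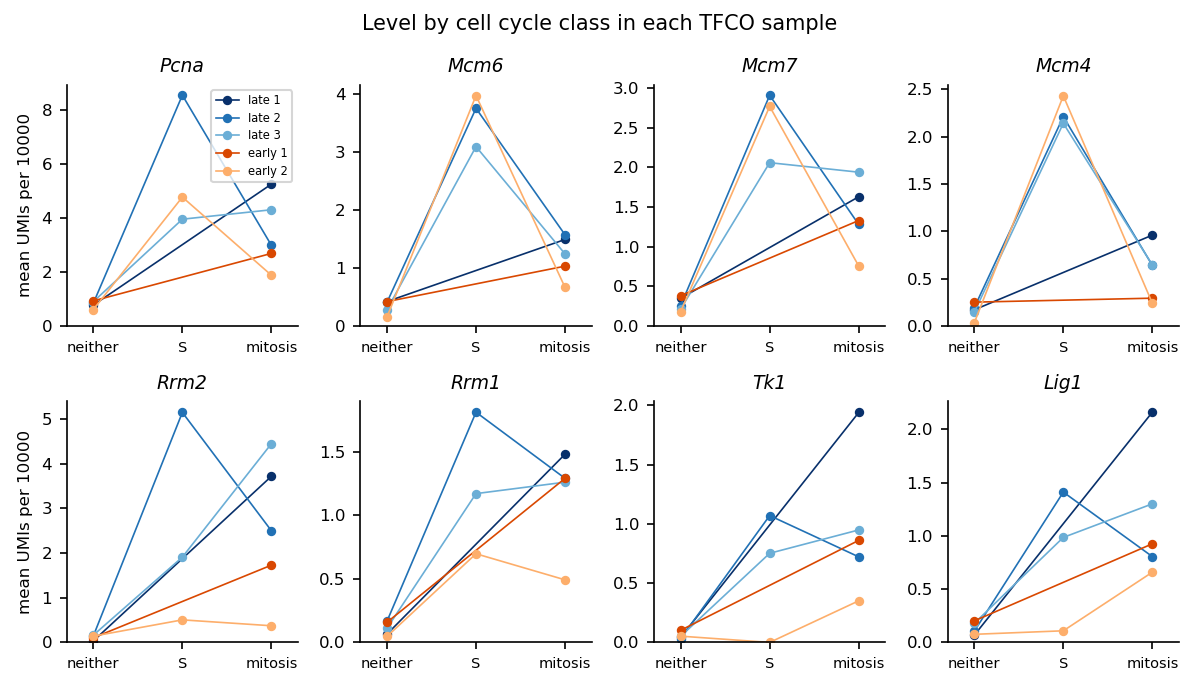
Mean UMIs per 10000 in cells of neither class, the S class and the mitosis class for 8 members, 1 line for each TFCO sample (late in blue, early in orange), where late 1 and early 1 have no S point because their S class held fewer than 5 cells. Mcm6 and Mcm4 peak in the S class in all 3 samples that have one, while Rrm2, Tk1 and Lig1 do not share such an order.

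Mcm7 (2.07 ± 0.24), Mcm5 (1.77 ± 0.23) and Mcm3 (1.39 ± 0.23) also rose, so that 5 of the 6 ring genes passed, and Mcm2 missed it (1.31 ± 0.31, adjusted p = 0.0507, limma). The other members that rose were Rrm2 (2.00 ± 0.39), Prim1, the catalytic subunit of primase (1.72 ± 0.26), Rpa2, which coats single strands (1.64 ± 0.25), Uhrf1, which carries DNA methylation over to new strands (1.59 ± 0.27), Rrm1 (1.53 ± 0.23), the S phase cyclin Ccne2 (1.36 ± 0.24), Rfc1 (1.35 ± 0.26, with 3.38 in late 3 and 1.04 and 1.06 in the others) and the flap nuclease Fen1 (1.27 ± 0.23). Ccne1 (0.66 ± 0.26), Gmnn (0.87 ± 0.31), the GINS genes (-0.02 to 0.56) and Cdc45 (1.07 ± 0.30) did not pass. This set shrank when the classes were drawn at 4000 UMIs, where 2 members passed next to 0.0224% of genes (Rpa2 and Mcm7). At that depth the S class held 6 to 13 cells in each sample, so all 5 samples entered. With estimated class weights the set of 14 shrank to 10 (0.166% of genes). It was 7 without late 3 (0.212% of genes) and 24 without early 2 (0.712%). With the filter on the mean over all TFCO cells, 20 members were tested and 9 were higher (0.327% of genes).

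Between the 2 classes, 3 members were higher in S than in mitosis class cells and 0 lower, next to 0.144% higher among all genes. They were Mcm4 (1.49 ± 0.24), Mcm6 (1.37 ± 0.23) and Rfc1 (1.23 ± 0.26), with adjusted p of 0.0140, 0.0140 and 0.0379 (limma). These calls depended on the setting. With classes drawn at 4000 UMIs, 0 members were higher and 2 lower in the S class and the median difference turned from 0.47 to -0.10. With estimated class weights, without late 3 or without early 2, 0 passed (limma), while 11, 12 and 20 members had an unadjusted p under 0.05 and the median differences were 0.46, 0.44 and 0.61.

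Of the other genes of the machinery, 4 of 24 tested were higher in the S class, Dscc1 (1.47 ± 0.31) and Topbp1 (1.46 ± 0.24), the fork protein Tipin (1.31 ± 0.24) and the polymerase subunit Pold3 (1.07 ± 0.25), and 1 in the mitosis class, Dbf4, the activator of the CDC7 kinase (0.86 ± 0.21). Among genes of other nucleotide supply, Dck, the kinase that salvages deoxycytidine, was higher in the S class (1.38 ± 0.30). Among all genes tested, 0.542% were higher in the S class and 1.07% in the mitosis class. With classes drawn at 4000 UMIs, none of Dscc1, Topbp1, Tipin, Pold3 and Dck passed in the S class. Of the 19 genes that control S phase entry, 0 passed in the S class (limma) and 1 in the mitosis class, the RB relative Rbl1 (0.92 ± 0.22).

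The members were also seen together in single cells more often than their shares give. Over the 1350 thinned TFCO cells, the 703 pairs were found together 3477 times, against 1604 from the product of the shares within each sample, a ratio of 2.17. Of the 452 pairs whose product was at least 1 cell, 87.2% had a ratio above 1. No such ratio was computed for pairs of other genes, so whether these values are particular to replication genes was not tested. The ratio was 3.34 for pairs among Mcm2 to Mcm7 (180 against 53.8) and 4.01 among Rrm1, Rrm2, Tyms, Tk1 and Dut (72 against 18.0). Among those 452 pairs the highest was Rrm2 with Tk1, in 12 cells against 1.39. Pairs with a member that follows the well barcode were found 792 times against 536, and Gins3 with any member had a ratio of 0.916. With the ring genes, Rfc1 had a ratio of 1.67, beside 3.69 for Rrm2 and 3.75 for Lig1, and Gmnn was found 28 times against 19.0. These ratios are descriptions, as cells of 1 sample share their source.

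**Figure D5:**
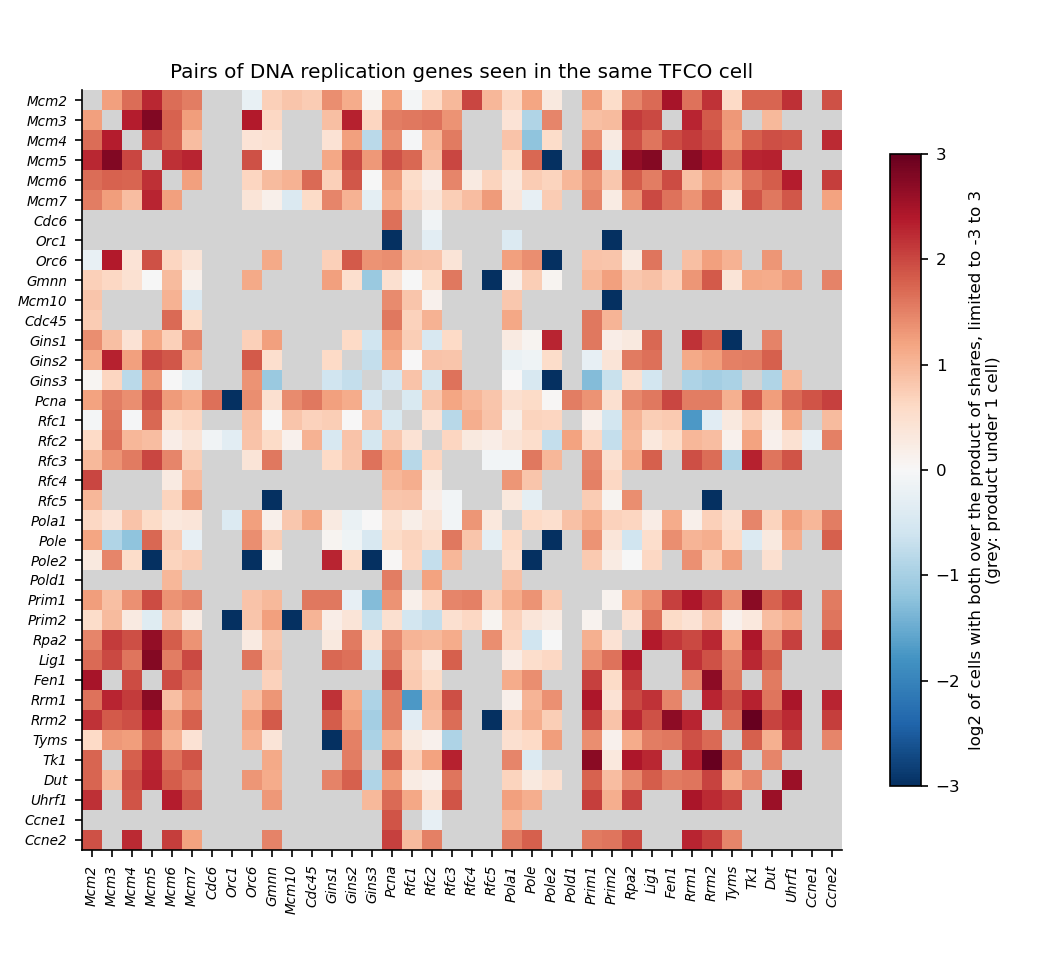
Log2 ratio of TFCO cells with UMIs of both members to the number given by the product of their shares within each sample, for all pairs, after thinning to 2000 UMIs and limited to -3 to 3. Red pairs are seen together more often, grey pairs had a product under 1 cell, and the ring genes, Lig1, Rrm1, Rrm2 and Tk1 form most of the dark red, while the Gins3 row is largely pale or blue.

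Even in cells with S phase markers the ring was seen only in part. At least 3 of the 6 ring genes had a UMI in 7 of 27 S class cells (25.9%), 11 of 114 mitosis class cells (9.65%) and 7 of 1209 others (0.579%), and no cell held all 6 at this depth. At least 1 ring gene was seen in 77.8% of S class cells, 57 of 114 mitosis class cells and 17.4% of the others.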

How the data were processed

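Single cells were sorted and profiled by SORT-seq. Per the labels' processing notes, reads were handled with Trim Galore 0.4.3, STAR 2.5.3a and Seurat on GRCm38 (mm10), and the counting options, cell filter and annotation are not given in the sources used here. The authors deposited 1 table on a natural log scale (UMIs scaled to 10000 in a cell, with 1 added before the log). Here the log was undone and UMIs were recovered (100% of non-zero values whole within 0.01). Tissue cells of at least 1000 UMIs were clustered with scanpy 1.11.5 (2000 variable genes, 30 components, Leiden at resolution 1) and named from marker lists. The naming rule, the 12 cells set aside for markers of other types and the 156 cells left unnamed were settled after the clusters had been seen. No doublet caller was run. The members and all lists were chosen with earlier results of these data known.

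Means per sample were tested with limma 3.58.1 in R 4.3.3 on log2(mean per 10000 + 0.5) over genes with a mean of at least 0.2, with Benjamini-Hochberg adjustment over all genes tested and a threshold of 0.05. Tissue and TFCO samples had estimated weights of 0.355 and 1.51. Log2 differences understate the change of low genes. The limit of each cell class was the median plus 3 scaled MADs of its gene set. The tests were tried on simulated data. Shares were compared by exact permutation tests. Intervals are Clopper-Pearson and cover counting error only. All members were named by role, with values in full for those that passed. Exons of 10 members overlap a gene of the opposite strand that is in the table (among them Mcm7, Rfc2, Lig1 and Fen1), and strand use in counting is not stated. Pseudogenes Pcna-ps2 and Tyms-ps have rows of their own and could share reads. Some results of the list of other nucleotide supply genes are not reported here.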

Additional observations from a re-analysis of the deposited data

How the results depend on the processing

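The number of members that passed was recomputed under other settings, of which the filter on all TFCO cells, the estimated class weights, the runs without the deepest cells, the fold limits without tissue 2 and the further runs at 4000 UMIs were added after seeing the data. For TFCO against tissue it was 3, and 1 with a filter of 0.5 (2 members tested), 0 with summed UMIs, 0 with cells thinned to 2000 UMIs, 1 with centring on the median gene, 9 with equal weights, 1 with every deposited cell, and 3 to 9 when each sample was left out. Without the 2 deepest cells of tissue 2 it was 3, or 4 with summed UMIs. For late against early it stayed 0 throughout (0 to 0 when each sample was left out). For the S class (14) it was 4 with no filter, 22 with summed UMIs, 2 with classes at 4000 UMIs (3 with estimated weights, and 0 to 2 when samples were then left out), 9 with the filter on all TFCO cells, and 7 to 24 when each sample was left out. For the mitosis class (9) it was 1 with no filter, 16 with summed UMIs, 14 with classes at 4000 UMIs, 24 with estimated weights at 2000 and 24 at 4000 UMIs, and 4 to 11 when each sample was left out (5 to 10 at 4000 UMIs).

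For the S against the mitosis class (3) it was 0 with no filter, 10 with limits 1.5 times as high (where 1 sample had an S class), 0 with estimated weights at 2000 and 0 at 4000 UMIs, and 0 to 3 when each sample was left out. With classes at 4000 UMIs the direction reversed (2 lower in S, or 0 to 1 when each sample was left out), with log2 differences of -0.0029 for Mcm6 and -0.07 for Rfc1 (the same with estimated weights). When samples were then left out, Mcm4 reached -0.03, Mcm6 -0.13, -0.26 and -0.29, and Rfc1 -0.03, -0.17, -0.2 and -0.25. At 4000 UMIs the limit was 7 UMIs, beside 6 at 2000 UMIs, so the classes were also drawn with a looser limit for their depth. The cause was not tested.

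For the share of cells with 3 or more members, TFCO minus tissue was 9.67 percentage points, 7.40 at 1000 UMIs, 28.9 at 4000 UMIs, 53.0 unthinned, 26.1 for 2 or more members and 11.2 with another seed (exact permutation p = 0.0476 in each of these 5 settings), against p = 0.0952 for the first value and for 5 or more members (5.94), and 8.49 to 10.8 when each sample was left out. Late minus early was -0.756, and changed sign to 1.25 at 1000 UMIs, 1.03 unthinned and 0.323 for 5 or more members, with -4.66 to 3.15 when each sample was left out, none past the threshold. The unthinned shares were not matched for depth, and at 4000 UMIs the tissue samples held 6 and 10 TFC-like cells. No paired analysis was possible because replicate numbers only name samples.

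The TFC-like tissue cells limit the depth: 53 cells remained at 2000 UMIs and 16 at 4000 UMIs, and 26 members were below the filter in the comparison with tissue.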
